A study of Caenorhabditis elegans with 12 samples.

Results

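The transcripts of 33 autophagy genes were followed in whole Caenorhabditis elegans at day 10, in 12 RNA-seq libraries of 4 genotypes with 3 biological replicates each. The genotypes were spr-4;spr-3;daf-2 (the triple mutant), daf-2, spr-4;spr-3 (the double mutant) and N2, the wild type, which is also the background of the other strains. The product of daf-2 is the worm's insulin/IGF-1 receptor, and its mutation lengthens life. Those of spr-3 and spr-4 are zinc finger proteins that the series sets beside the neuronal repressor REST in a study of lifespan and neural excitation. Neither the alleles nor the event from which days were counted is given in the sources used here. All worms were kept at 20 °C, and the number of worms taken for RNA is given as 100 per strain. The 33 genes were taken by name, as factors of autophagosome formation, cargo receptors and epg (ectopic PGL granule) genes, and all 33 were found among the 46739 genes of the count table. The gene listed as atg-11 stands in the annotation under its other name, epg-7.

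Autophagy encloses cytoplasm in a double membrane, the autophagosome, and delivers it to the lysosome. The UNC-51 (ULK1) kinase complex starts the process, a class III phosphatidylinositol 3-kinase complex marks the membrane with PI3P, and ATG-9, ATG-2 and the PI3P-binding WIPI proteins bring and extend it. A ubiquitin-like conjugation system then attaches LGG-1 and LGG-2 to lipid, and receptors select cargo. ER proteins also take part, and a tether brings the vesicle to its fusion. In worms with reduced insulin/IGF-1 signalling several of these genes, bec-1 among them, are needed for the long life, and in embryos the pathway clears germ granule proteins and paternal mitochondria.

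Library totals were between 11892808 counts (daf-2 replicate 2) and 46493665 counts (daf-2 replicate 3). Values below are CPM, reads scaled to a common total by the library total times its TMM factor, given in the order of replicates 1, 2 and 3. Of the mutated genes, spr-3 had 37.9 to 42.5 CPM in triple mutants, 21.2 to 25.2 in daf-2 worms, 26 to 30.5 in double mutants and 21.2 to 24.4 in N2 worms. The transcript of spr-4 had 21.8 to 40.3 CPM in triple mutants, 44.5 to 57.8 in daf-2 worms, 36.4 to 41.2 in double mutants and 46.1 to 76.8 in N2 worms. Those of daf-2 were 56.4 to 70.8, 62.7 to 72.6, 45.5 to 58.2 and 35 to 38.7 CPM in the same order of genotypes, so these RNA levels do not check the labels. Replicate 2 of the double mutant stood apart from its replicates (chi-square per degree of freedom 143 and 162, against 21.6 to 65.6 for the other pairs within genotypes). Long genes also differed between replicates: the median log2 deviation of 657 genes with at least 4000 bp of exon was -0.31 in N2 replicate 1, -0.19 in triple mutant replicate 2 and 0.22 in daf-2 replicate 2.

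The autophagy genes covered a wide range of levels. Per kb of exon, the conjugation gene lgg-1 had the highest level of the 31 tested members, 502 CPM per kb as a mean of the 12 libraries, at percentile 98.5 of all tested genes. The receptor genes allo-1 (169 CPM per kb) and sqst-1 (168) followed, then lgg-2 (119), another conjugation gene, and epg-4 (93.9), which encodes an ER protein of the EI24 family. By role, the highest members were atg-13 in the ULK1 complex (55.1 CPM per kb), bec-1 in the PI3 kinase complex (39.2), atg-18 among ATG-9, ATG-2 and the WIPI proteins (50.8), lgg-1 in conjugation, epg-4 among the ER factors, and allo-1 among the receptors. At the other end stood epg-3, the worm VMP1 (0.844 CPM per kb), the P granule receptor gene sepa-1 (1.5) and epg-5, the autolysosome tether (2.42). The order held roles mixed together: the ULK1 complex alone reached from 55.1 CPM per kb for atg-13 to 9.5 for atg-11.

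**Figure D1:**
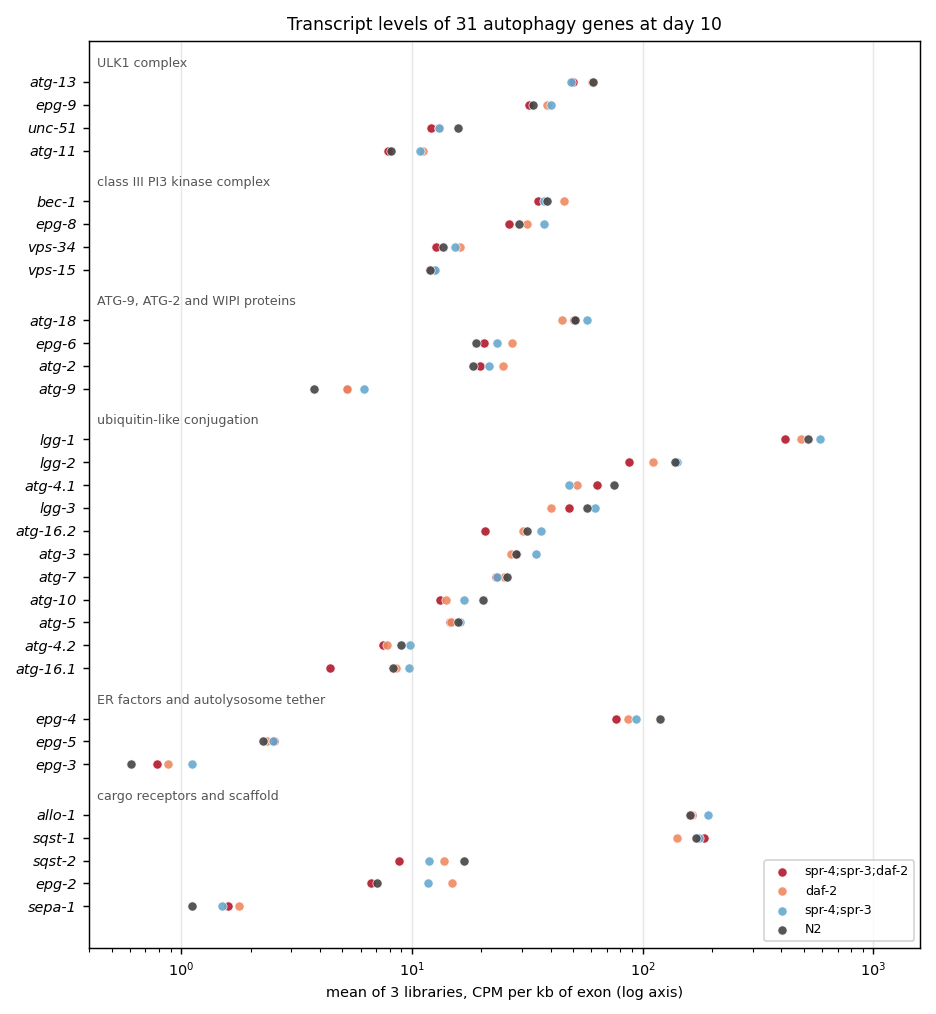
Mean level of each of the 31 tested autophagy genes in each genotype (3 libraries), in CPM per kb of exon on a log axis, grouped by role and sorted by level within a role. The position of a gene depends far more on the gene than on the genotype: the means over the 12 libraries run from 0.844 for epg-3 to 502 for lgg-1, and only epg-2 and atg-16.1 have genotype means 2 fold or more apart.

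The members sqst-3 and sqst-4, genes related to the p62 gene sqst-1, had too few reads to be tested. All 4 reads of sqst-3 came from daf-2 replicate 3 (0.0818 CPM). The 23 reads of sqst-4 came from triple mutant replicate 1 (0.514 CPM), daf-2 replicate 3 (0.0409 CPM) and N2 replicate 1 (0.263 CPM), with none in the double mutant. A count of 0 allows up to 3 counts, which here is 0.0613 to 0.241 CPM depending on the library.

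Differences between genotypes were small. In 19 of the 31 tested members the highest genotype mean was within 1.5 fold of the lowest, and in 2 it was at least 2 fold above it, epg-2 (2.24 fold) and atg-16.1 (2.19 fold). With edgeR's quasi-likelihood test and a p under 0.05 after Benjamini-Hochberg (BH) adjustment over all 18342 tested genes, 12 members changed in at least 1 of the 5 comparisons or in the interaction, and 19 in none. The interaction is the effect of the daf-2 mutation in spr-4;spr-3 worms minus its effect in N2.

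In the triple mutant against daf-2, which asks what the spr mutations do in daf-2 worms, 3 of 31 members fell and 0 rose (9.68%, beside 13.4% of all tested genes, 6.77% higher and 6.65% lower). Before adjustment 1 member was higher at p under 0.05, sqst-1, and DESeq2 and limma-voom each called 1 member higher. The median log2 fold change was -0.17 over the members and -0.01 over all tested genes, and 23 of 31 members were below 0, against 50.6% of all genes. In the triple against the double mutant, the effect of the daf-2 mutation in spr-4;spr-3 worms, 6 of 31 fell and 0 rose in edgeR (19.4%, beside 14.9% of all genes, 7.02% higher and 7.92% lower), with 1 higher before adjustment and 1 each with DESeq2 and limma-voom. Here the median was -0.28 over the members and 0.01 over all genes, and 26 of 31 were below 0, against 49.4%. In the triple mutant against N2, 5 of 31 fell and 0 rose in edgeR, beside 22.2% of all genes (10.8% higher and 11.3% lower), and 1 was higher before adjustment and 0 with DESeq2 or limma-voom. There the medians were -0.11 over the members and 0.04 over all genes. These 3 comparisons share the libraries of the triple mutant.

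In daf-2 against N2, which asks what the daf-2 mutation does alone, 2 members rose and 2 fell (12.9%, beside 20.6% of all genes, 9.58% higher and 11% lower). The median was -0.01 over the members and 0.06 over all genes. In the double mutant against N2, 2 rose and 1 fell (9.68%, beside 11.7% of all genes, 5.07% higher and 6.6% lower), and the median was 0.18 over the members and 0.04 over all genes. The interaction was negative for 4 members and positive for 1, that is for 5 of 31, beside 8.32% of all genes (4.89% positive and 3.43% negative). Groups of libraries did not overlap for 15 members in the triple mutant against daf-2 (36% of all genes), 10 in the triple against the double mutant (30.7%), 13 in the triple mutant against N2 (38.9%), 10 with daf-2 against N2 (39.9%) and 11 between double mutant and N2 worms (28.5%).

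**Figure D2:**
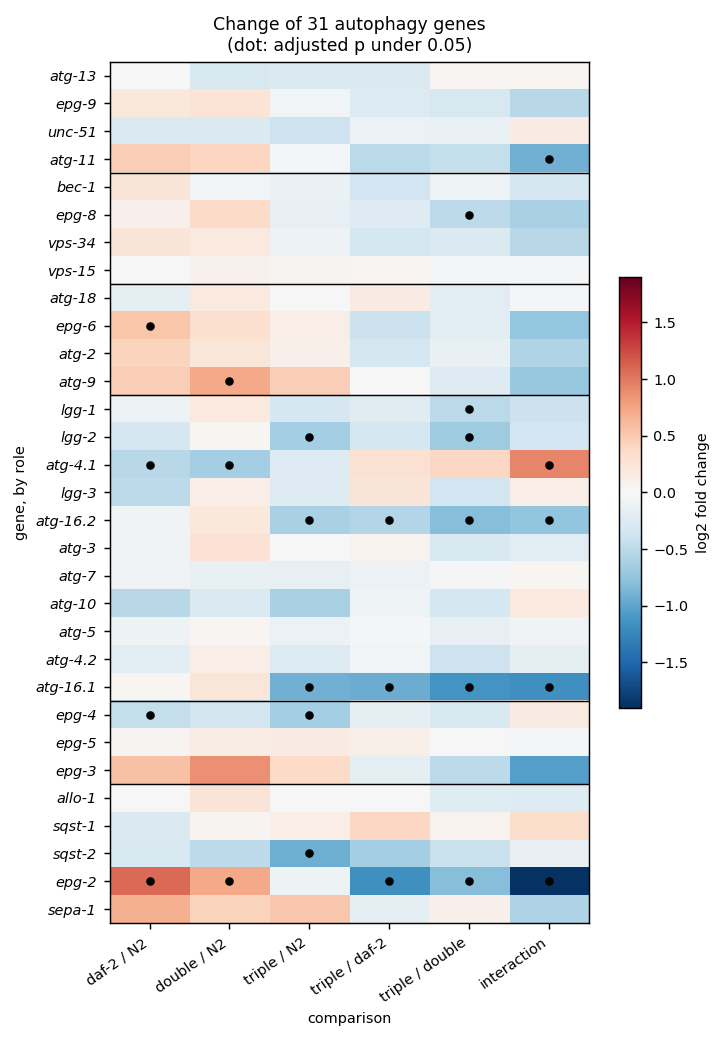
Log2 fold change of the 31 tested autophagy genes (rows, grouped by role and separated by lines) in each comparison (columns, with the triple mutant spr-4;spr-3;daf-2 and the double mutant spr-4;spr-3 by these short names, and the interaction last), red for higher and blue for lower, with a dot where edgeR's adjusted p is under 0.05. The 3 columns with the triple mutant against another genotype hold 14 dots, all on blue cells, and epg-2 in the interaction is the darkest cell at -1.88.

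Genes of particular tissues also moved between these genotypes. The summed CPM of 18 oocyte and early embryo markers was 20413 to 23027 in triple mutants, 18611 to 22811 in daf-2 worms, 23070 to 30480 in double mutants and 34636 to 37480 in N2 worms. Of the 18, 15 fell in daf-2 against N2 (beside 11% of all tested genes lower), and 12 rose in the triple mutant against daf-2 (beside 6.77% higher). In the double mutant against N2, where the sums did not overlap, 1 rose and 2 fell (16.7%, beside 11.7% of all tested genes). Their median log2 fold change there was 0.04, with 11 above 0 and 7 below. The sum of 11 intestine markers was 377 to 627, 370 to 510, 1065 to 2738 and 3379 to 4924 CPM in the same order of genotypes, and of the 11, 9 were lower in triple mutant than in N2 worms, 8 in daf-2 than in N2 worms and 7 in triple than in double mutants. The germline sum (10 markers) was 1092 to 1267, 931 to 1043, 758 to 890 and 714 to 921 CPM, and the body wall muscle sum (10 markers) 2908 to 3298, 1777 to 2263, 1001 to 1982 and 2041 to 2551 CPM. Of the muscle markers, 0 of 10 passed in edgeR in the triple mutant against daf-2 (median log2 fold change 0.11, with 7 above 0 and 3 below). There 3 were higher and 1 lower before adjustment, DESeq2 called 1 higher and 1 lower, and limma-voom 2 higher and 1 lower. In edgeR 3 of 10 rose in the triple against the double mutant. The neuron sum (12 markers) was 606 to 672 CPM in triple mutants, 704 to 735 in daf-2 worms, 651 to 774 in double mutants and 675 to 762 in N2 worms, with no overlap between the triple mutant and daf-2. The median log2 fold change of the neuron markers was -0.26 in the triple mutant against daf-2 (3 of 12 fell), -0.36 against the double mutant (3 of 12 fell) and -0.50 in the interaction (4 of 12 negative), beside -0.17, -0.28 and -0.24 for the autophagy members, whereas in daf-2 against N2 it was 0.08, beside -0.01. The hypodermis sum (10 markers, 8 of them tested) was 128 to 142, 174 to 221, 118 to 161 and 174 to 273 CPM in the same order of genotypes, and of the 8, 2 fell in the triple mutant against daf-2, with a median of 0.51. None of the markers was at 0 in every library, and the part of these shifts in the autophagy results was not tested. In RNA from whole worms, fewer cells of a type and less RNA per cell cannot be told apart.

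Among the cargo genes, epg-2 had the widest range of genotype means of the tested members. EPG-2 is a scaffold that links SEPA-1 aggregates of germ granule proteins to LGG-1 during their removal in embryos (chromosome I, 2300086 to 2302813 of WBcel235, plus strand). It had 13.8, 19.7 and 11.9 CPM in triple mutants, 36.5, 36.1 and 29.3 in daf-2 worms, 31.6, 25.7 and 22.7 in double mutants, and 15.7, 19.6 and 13.1 in N2 worms. All daf-2 and double mutant libraries lay above all triple mutant and N2 libraries, and the triple mutant and N2 overlapped. Against N2, the log2 fold change was 1.07 ± 0.21 (SE) in daf-2 (edgeR BH-adjusted p = 0.0014) and 0.72 ± 0.20 in the double mutant (edgeR BH-adjusted p = 0.032). For the triple mutant it was -1.16 ± 0.21 against daf-2 (edgeR BH-adjusted p = 0.0016), -0.81 ± 0.20 against the double mutant (edgeR BH-adjusted p = 0.013), and -0.09 against N2, with a 95% interval of -0.53 to 0.34.

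The interaction of epg-2 was -1.88 ± 0.29 (edgeR BH-adjusted p = 0.0019). Calls of epg-2 for daf-2 against N2, for the triple mutant against daf-2 and for the interaction held without any of the 12 libraries. The double mutant against N2 lost its call without daf-2 replicate 2 (adjusted p = 0.05), N2 replicate 1 (0.098), N2 replicate 3 (0.14) or double mutant replicate 1 (0.15), and when only the genotypes compared were fitted (0.057). The triple against the double mutant lost its call without triple mutant replicate 1 (0.054) or 3 (0.071) or double mutant replicate 1 (0.059). The opposite strand gene tpxl-1 overlaps 3.42% of the exon bases of epg-2, and reads of the 2 genes there cannot be told apart because the library kit does not mark the strand.

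The partner receptor SEPA-1 binds the germ granule protein PGL-3. The gene sepa-1 had 4, 3.97 and 2.66 CPM in triple mutants, 5.86, 3.54 and 2.54 in daf-2 worms, 4.47, 2.51 and 2.99 in double mutants, and 2.55, 2.46 and 2.41 in N2 worms. These values rest on 44 to 164 reads per library. No comparison passed in edgeR, and in daf-2 against N2, for which epg-2 rose, the 95% interval of sepa-1 was -0.07 to 1.43 on the log2 scale.

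The gene sqst-2 (chromosome IV, 7327771 to 7328975, minus strand), a member of the p62 family, fell in the triple mutant against N2. It had 9.5, 7.35 and 5.89 CPM in triple mutants, 10.9, 12.2 and 12.4 in daf-2 worms, 10.2, 8.05 and 12.3 in double mutants, and 15.4, 11.5 and 16.4 in N2 worms. All triple mutant libraries were below all N2 and all daf-2 libraries, at a log2 fold change of -0.93 ± 0.22 against N2 (edgeR BH-adjusted p = 0.0065) and -0.65 ± 0.22 against daf-2 (edgeR BH-adjusted p = 0.068, and 0.044 without triple mutant replicate 1). The p62 gene itself, sqst-1, encodes the receptor for ubiquitinated cargo. It had 404, 395 and 449 CPM in triple mutants, 316, 341 and 293 in daf-2 worms, 422, 367 and 401 in double mutants, and 323, 364 and 460 in N2 worms. Its log2 fold change in the triple mutant against daf-2 was 0.39 ± 0.14 (edgeR BH-adjusted p = 0.083), with no overlap of the groups, and it passed with DESeq2 (adjusted p = 0.045) and limma-voom (0.026).

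The 2 family members thus had opposite signs in the triple mutant against daf-2. Per kb of exon, the ratio of sqst-1 to sqst-2 averaged 21.9 ± 6.54 in triple mutants and 10.2 ± 1.10 in daf-2 worms (SD, n = 3 each). It averaged 15.2 ± 2.51 in double mutants and 10.2 ± 2.07 in N2 worms. The triple mutant libraries lay above those of daf-2 and N2 in this ratio, with no overlap. The receptor of paternal mitochondria, allo-1, had 209, 222 and 225 CPM in triple mutants, 205, 217 and 228 in daf-2 worms, 276, 215 and 281 in double mutants, and 198, 222 and 230 in N2 worms. Its genotypes overlapped in every comparison.

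In the conjugation system, both genes for ATG-16, the protein that places the ATG-5 conjugate on the growing membrane, fell in the triple mutant. The gene atg-16.1 (chromosome X, 4459603 to 4462465, minus strand) had 10.6, 7.14 and 6.84 CPM in triple mutants, 12.9, 21 and 13.9 in daf-2 worms, 18.1, 13.5 and 22.4 in double mutants, and 14.7, 17 and 14.4 in N2 worms. Every triple mutant library was below every library of the other genotypes, which overlapped one another. Triple mutants had a log2 fold change of -0.95 ± 0.24 against daf-2 (edgeR BH-adjusted p = 0.015), -1.14 ± 0.24 against the double mutant (edgeR BH-adjusted p = 0.0043) and -0.91 ± 0.24 against N2 (edgeR BH-adjusted p = 0.011). Its values were 0.04 in daf-2 against N2 (95% interval -0.46 to 0.54) and 0.23 in the double mutant against N2 (-0.27 to 0.72). The call against daf-2 was lost without daf-2 replicate 2 (adjusted p = 0.084) or triple mutant replicate 2 (0.057) or 3 (0.071), and that against N2 without triple mutant replicate 3 (0.056). On the chromosome atg-16.1 lies 51.6 kb from the mutated gene spr-3, the shortest distance between a member and a mutated gene.

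The other ATG-16 gene, atg-16.2 (chromosome II, 6450889 to 6453391, minus strand), had 41.2, 37.5 and 38.4 CPM in triple mutants, 58.4, 55.7 and 57.3 in daf-2 worms, 81.6, 56.5 and 66.8 in double mutants, and 56.5, 66.6 and 55.6 in N2 worms. Again all triple mutant libraries were below all others, and the other genotypes overlapped. Triple mutants had a log2 fold change of -0.55 ± 0.14 against daf-2 (edgeR BH-adjusted p = 0.015), -0.81 ± 0.14 against the double mutant (edgeR BH-adjusted p = 0.0011) and -0.61 ± 0.14 against N2 (edgeR BH-adjusted p = 0.0047). The call against daf-2 was lost without daf-2 replicate 1 (adjusted p = 0.054) or 3 (0.053) or triple mutant replicate 2 (0.051) or 3 (0.057). Per kb of exon, atg-16.2 had 20.7 CPM in triple mutants, 30.4 in daf-2 worms, 36.3 in double mutants, and 31.7 in N2 worms, above atg-16.1 in each genotype (4.42, 8.57, 9.68 and 8.28 CPM per kb in the same order).

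Of the proteins that become attached to lipid, LGG-2 fell in transcript in the triple mutant against both genotypes without the daf-2 mutation. Its gene (chromosome IV, 10934196 to 10935903, minus strand) had 87.7, 83.7 and 102 CPM in triple mutants, 97.2, 131 and 116 in daf-2 worms, 162, 125 and 152 in double mutants, and 144, 140 and 145 in N2 worms. The triple mutant did not overlap the double mutant or N2, but overlapped daf-2. Log2 fold changes of lgg-2 were -0.68 ± 0.14 against the double mutant (edgeR BH-adjusted p = 0.0037) and -0.65 ± 0.14 against N2 (edgeR BH-adjusted p = 0.0032), and -0.33 against daf-2, with a 95% interval of -0.63 to -0.04 (edgeR BH-adjusted p = 0.13). Both calls held without any of the 12 libraries.

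The gene lgg-1 (chromosome II, 6346960 to 6347719, minus strand) had 298, 301 and 281 CPM in triple mutants, 341, 304 and 387 in daf-2 worms, 440, 376 and 434 in double mutants, and 387, 331 and 383 in N2 worms. The triple mutant libraries were the lowest of the 12. Its level was lower in triple than in double mutants (-0.51 ± 0.13, edgeR BH-adjusted p = 0.017), and that call was lost without triple mutant replicate 1 (0.051) or 3 (0.074) or double mutant replicate 1 (0.053) or 3 (0.06). In daf-2 against N2 the value of lgg-1 was -0.09, with a 95% interval of -0.38 to 0.19.

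The protease ATG-4.1 trims LGG-1 for conjugation and releases it again. Its gene, atg-4.1 (chromosome I, 13536967 to 13542395, minus strand), had 106, 91.8 and 110 CPM in triple mutants, 83.3, 87.8 and 81.1 in daf-2 worms, 71.6, 94.8 and 66.3 in double mutants, and 118, 120 and 125 in N2 worms. N2 was above all libraries of every other genotype. Against N2, the log2 fold change was -0.53 ± 0.14 in daf-2 (edgeR BH-adjusted p = 0.012) and -0.64 ± 0.14 in the double mutant (edgeR BH-adjusted p = 0.008), whereas the triple mutant had 0.29 ± 0.14 against daf-2 (edgeR BH-adjusted p = 0.19) and -0.24 ± 0.14 against N2 (edgeR BH-adjusted p = 0.23). The call in daf-2 against N2 was lost without daf-2 replicate 3 (adjusted p = 0.05). Without double mutant replicate 2, the library that stood apart, the triple mutant was also higher than the double mutant (adjusted p = 0.0044, against 0.061 with all libraries, at 0.40 ± 0.14). The opposite strand gene Y87G2A.2 overlaps 6.2% of the exon bases of atg-4.1.

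The remaining 6 members of the conjugation system passed in no comparison in edgeR with all libraries. These are the activating enzyme gene atg-7 (38.4 to 60.1 CPM over the 12 libraries), the conjugating enzyme genes atg-3 (23.3 to 35.9) and atg-10 (5.61 to 12.7), the genes of the conjugate atg-5 (12.9 to 18.3) and lgg-3 (8.78 to 28.3), and the second protease gene atg-4.2 (8.96 to 17.8). The genotype means of atg-5 were within 1.11 fold and those of atg-7 within 1.12 fold of each other. Nearest to the threshold was atg-10 in the triple mutant against N2 (log2 fold change -0.61 ± 0.23, edgeR BH-adjusted p = 0.071, and 0.037 without triple mutant replicate 2), which passed with DESeq2 (0.036), limma-voom (0.029) and the exon length offset (0.048). In the triple against the double mutant lgg-3 passed with the exon length offset alone (log2 fold change -0.56, adjusted p = 0.032, against 0.34 in edgeR without it). Over the 11 conjugation genes, 4 fell in the triple against the double mutant (36.4%, beside 7.92% of all tested genes lower), 3 in the triple mutant against N2 (27.3%, beside 11.3%) and 2 against daf-2 (18.2%, beside 6.65%). All 11 log2 fold changes were below 0 against N2, where 47.2% of all tested genes were. The summed level of the 11 genes was 650 to 684 CPM in triple mutants, 722 to 790 in daf-2 worms, 807 to 927 in double mutants and 826 to 871 in N2 worms.

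**Figure D3:**
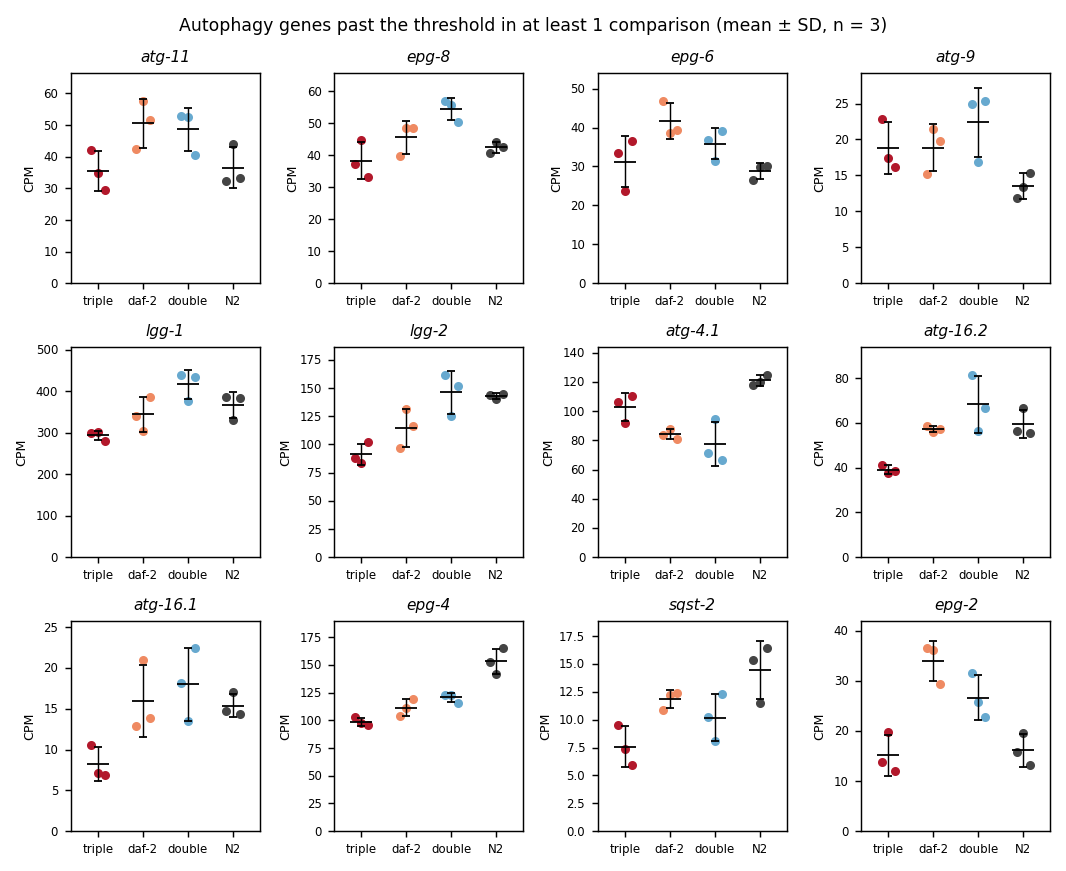
CPM of the 12 autophagy genes past the adjusted threshold in at least 1 comparison or in the interaction, in each library (points), with the mean and SD of the 3 libraries of a genotype (bars), in the order spr-4;spr-3;daf-2 (triple), daf-2, spr-4;spr-3 (double) and N2. The triple mutant lies below all other libraries for atg-16.1, atg-16.2 and lgg-1, daf-2 and the double mutant lie above the other genotypes for epg-2, and N2 lies above the others for atg-4.1 and epg-4.

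Among the ER factors, epg-4 was highest in N2. The gene (chromosome III, 7182167 to 7184054, plus strand) had 103, 97.2 and 95.8 CPM in triple mutants, a mean of 111 ± 7.27 (SD, n = 3) in daf-2 worms, 123, 123 and 116 in double mutants, and 153, 142 and 165 in N2 worms. Every N2 library was above every other library. Relative to N2, the log2 fold change was -0.64 ± 0.11 in the triple mutant (edgeR BH-adjusted p = 0.00071), -0.46 ± 0.11 in daf-2 (edgeR BH-adjusted p = 0.0079) and -0.35 ± 0.11 in the double mutant (edgeR BH-adjusted p = 0.057, and 0.039 without double mutant replicate 2). Its interaction was 0.17, with a 95% interval of -0.16 to 0.51. The genes epg-3, on 18 to 171 reads per library, and epg-5 (11 to 23.9 CPM) passed in no comparison in edgeR.

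Of ATG-9, ATG-2 and the WIPI proteins, epg-6 rose in daf-2 and atg-9 in the double mutant. EPG-6 is a PI3P-binding WIPI protein, and its gene (chromosome III, 10596610 to 10600188, minus strand) had 33.5, 23.8 and 36.5 CPM in triple mutants, 46.9, 38.7 and 39.4 in daf-2 worms, 36.8, 31.5 and 39.2 in double mutants, and 26.5, 29.9 and 30.2 in N2 worms. The daf-2 and double mutant libraries were above N2. In daf-2 against N2 the log2 fold change was 0.53 ± 0.16 (edgeR BH-adjusted p = 0.029), and this call was lost without any of the 6 libraries of daf-2 and N2 (0.052 to 0.13). ATG-9 is the membrane-spanning protein of the pathway, and atg-9 (chromosome V, 349385 to 359658, plus strand) had a mean of 18.8 ± 3.56 CPM (SD, n = 3) in triple mutants, 15.2, 21.5 and 19.8 in daf-2 worms, 24.9, 16.8 and 25.4 in double mutants, and 11.8, 13.4 and 15.4 in N2 worms. The double mutant and the triple mutant were above N2, and daf-2 overlapped it.

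With the double mutant set against N2, atg-9 had a log2 fold change of 0.72 ± 0.20 (edgeR BH-adjusted p = 0.031). That call was lost without N2 replicate 1 (0.12), 2 (0.066) or 3 (0.051) or double mutant replicate 1 (0.12) or 3 (0.13), and when only the genotypes compared were fitted (0.063). The lipid transfer gene atg-2 (95.3 to 212 CPM) and the other WIPI gene, atg-18, did not pass in any comparison in edgeR with all libraries. For atg-2 in daf-2 against N2, limma-voom gave a log2 fold change of 0.51 (adjusted p = 0.025), against 0.43 in edgeR (BH-adjusted p = 0.12, and 0.037 without N2 replicate 2). In the triple mutant against daf-2 it passed with the exon length offset (adjusted p = 0.035), against 0.27 in edgeR without it. The levels of atg-18 were 90.3, 88.1 and 93 CPM in triple mutants, 78.3, 79.1 and 84.9 in daf-2 worms, between 103 and 105 in double mutants, and 97.2, 87.2 and 89.8 in N2 worms. The lowest and highest genotype means of atg-18 were within 1.29 fold, although daf-2 was below and the double mutant above every other library.

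In the class III PI3 kinase complex, epg-8 alone passed in edgeR with all libraries. EPG-8 is the worm ATG14, the subunit that directs the complex to autophagy, and its gene (chromosome I, 9931870 to 9934290, minus strand) had a mean of 38.3 ± 5.83 CPM (SD, n = 3) in triple mutants, 39.7, 48.6 and 48.4 in daf-2 worms, 57, 55.5 and 50.4 in double mutants, and 40.7, 44.1 and 42.4 in N2 worms. The double mutant was above all other libraries. In the triple against the double mutant the log2 fold change was -0.50 ± 0.14 (edgeR BH-adjusted p = 0.021), and it lost its call without triple mutant replicate 1 (0.07) or 3 (0.11) or double mutant replicate 1 (0.064), and when only the genotypes compared were fitted (0.059). The Beclin gene bec-1 had 47.4, 46.3 and 47.7 CPM in triple mutants, 60, 61.8 and 61.1 in daf-2 worms, 52, 42.6 and 55.1 in double mutants, and 49.8, 52.7 and 52.1 in N2 worms.

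The daf-2 libraries of bec-1 were above all others. Its log2 fold change was -0.37 ± 0.12 in the triple mutant against daf-2 (edgeR BH-adjusted p = 0.054, and 0.029 without double mutant replicate 2) and 0.24 ± 0.12 for daf-2 against N2 (edgeR BH-adjusted p = 0.18). DESeq2 (adjusted p = 0.022), limma-voom (0.024), the fit of only the genotypes compared (0.036) and the exon length offset (0.022) called the first of these. The lipid kinase gene vps-34 (30.5 to 50.8 CPM) and its partner vps-15 (41.4 to 60 CPM) did not pass in edgeR, and the genotype means of vps-15 were within 1.06 fold, the narrowest range of the tested members.

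In the ULK1 complex no pairwise comparison passed in edgeR with all libraries. The scaffold gene atg-11 (chromosome X, 7334714 to 7340268, plus strand) had 42, 35 and 29.5 CPM in triple mutants, 42.4, 57.7 and 51.5 in daf-2 worms, 52.7, 52.5 and 40.6 in double mutants, and 32.2, 44 and 33.4 in N2 worms. The triple mutant lay below daf-2 by a narrow gap (log2 fold change -0.51 ± 0.17, edgeR BH-adjusted p = 0.064, and 0.048 without triple mutant replicate 1), and the other neighbours overlapped. That difference passed when only the genotypes compared were fitted (0.044), with no count filter (0.03) and with the exon length offset (0.029). In daf-2 against N2 the value of atg-11 passed with limma-voom (adjusted p = 0.034) and without N2 replicate 2 (0.03), against 0.07 in edgeR with all libraries. The kinase gene unc-51 had 33.6, 36.2 and 35.6 CPM in triple mutants, 43.3, 37.4 and 33 in daf-2 worms, 46.4, 37.8 and 30 in double mutants, and 45.7, 47.9 and 44.4 in N2 worms. Against N2, its log2 fold change in the triple mutant was -0.39 ± 0.15 (edgeR BH-adjusted p = 0.084), and it passed without double mutant replicate 1 (0.047) or 3 (0.043), when only the genotypes compared were fitted (0.047) and with the exon length offset (0.039). The regulatory subunit gene atg-13 (69.6 to 102 CPM) and the ATG101 gene epg-9 (37.9 to 59.4 CPM) had genotype means within 1.24 fold, and the opposite strand gene D2007.1 overlaps 9.04% of the exon bases of atg-13.

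The effect of the daf-2 mutation in spr-4;spr-3 worms differed from its effect in N2 for 5 members. For epg-2 the triple against the double mutant gave -0.81 and daf-2 against N2 gave 1.07, on opposite sides of 0 and both past the threshold. For atg-4.1 the values were 0.40 and -0.53, with an interaction of 0.93 ± 0.19 (edgeR BH-adjusted p = 0.009) that held without any of the 12 libraries. For atg-11 they were -0.46 and 0.47, with an interaction of -0.92 ± 0.25 (edgeR BH-adjusted p = 0.031). That of atg-11 was lost without daf-2 replicate 2 (0.094) or 3 (0.083), triple mutant replicate 2 (0.059) or 3 (0.08), N2 replicate 1 (0.079) or 3 (0.076), or double mutant replicate 1 (0.08).

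For the ATG-16 genes the effect in N2 was near 0. The gene atg-16.1 had -1.14 in the triple against the double mutant and 0.04 in daf-2 against N2, an interaction of -1.17 ± 0.33 (edgeR BH-adjusted p = 0.041). It was lost without any of 8 libraries (0.066 to 0.12), that is without daf-2 replicate 2 or 3, triple mutant replicate 2 or 3, N2 replicate 1 or 3, or double mutant replicate 1 or 3. The gene atg-16.2 had -0.81 and -0.06, an interaction of -0.75 ± 0.20 (edgeR BH-adjusted p = 0.029). It was lost without the same 8 libraries or without daf-2 replicate 1, 9 in all (0.058 to 0.089). Over all 31 tested members, 23 interactions were below 0, with a median of -0.24, against 52.6% and -0.05 over all tested genes.

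**Figure D4:**
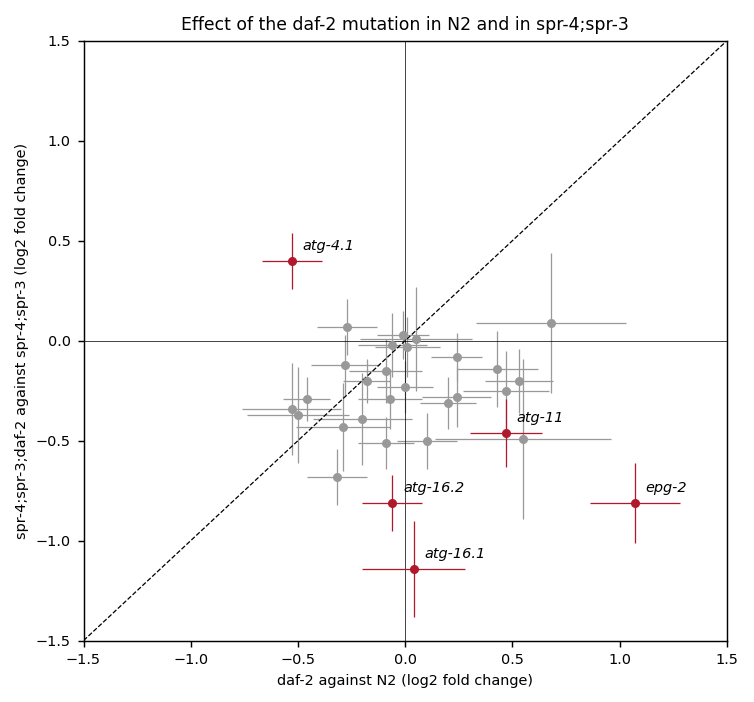
Log2 fold change of the 31 tested autophagy genes in the triple mutant spr-4;spr-3;daf-2 against the double mutant spr-4;spr-3 (vertical axis) and in daf-2 against N2 (horizontal axis), with standard errors as bars; red points have an interaction past the adjusted threshold, and the dashed line marks equal effects. Of these 5 named genes, epg-2, atg-11, atg-16.1 and atg-16.2 lie below the line and atg-4.1 above it, and 26 of the 31 genes are below 0 on the vertical axis.

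Genes that act beside the 33 members were counted in 5 further lists. Of 20 regulators of autophagy, 2 rose and 1 fell in daf-2 against N2 (15%, beside 20.6% of all tested genes), and 1 rose and 2 fell in the triple mutant against daf-2 (15%, beside 13.4%). In the other 3 comparisons 0 to 1 of them rose and 0 to 2 fell, where 11.7% to 22.2% of all tested genes were called. Of 15 genes of vesicle fusion and lysosome delivery, 2 rose in daf-2 against N2 (13.3%, beside 9.58% of all tested genes higher and 20.6% called) and 3 fell in the triple mutant against daf-2 (20%, beside 6.65% lower and 13.4% called). The small GTPase gene rab-7, which directs late endosomes and autophagosomes to the lysosome, had 51.4, 60.3 and 58.1 CPM in triple mutants, 97.8, 91.2 and 114 in daf-2 worms, 51.7, 62.1 and 52.3 in double mutants, and 65.3, 64.7 and 73.4 in N2 worms. All daf-2 libraries were above all others. The log2 fold change of rab-7 was -0.83 ± 0.13 in the triple mutant against daf-2 (edgeR BH-adjusted p = 0.00065) and 0.57 ± 0.13 for daf-2 against N2 (edgeR BH-adjusted p = 0.0048), and both calls held without any of the 12 libraries. Another gene, W03C9.5 on the same strand, overlaps 5.94% of the exon bases of rab-7.

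Other fusion genes fell with it in the triple mutant against daf-2. These were the lysosomal membrane gene scav-3 (-0.56 ± 0.14, edgeR BH-adjusted p = 0.013) and the autophagosomal syntaxin gene syx-17 (-0.58 ± 0.17, edgeR BH-adjusted p = 0.036). The call of scav-3 was lost without daf-2 replicate 3 (0.071) or triple mutant replicate 3 (0.061), and that of syx-17 without daf-2 replicate 1 (0.057), 2 (0.099) or 3 (0.13) or triple mutant replicate 1 (0.16) or 2 (0.063). The tethering complex gene vps-18 had 23.3, 12.3 and 17.3 CPM in triple mutants, 26, 27.5 and 22.8 in daf-2 worms, 16.8, 12.3 and 18.7 in double mutants, and 7.69, 13.9 and 11.5 in N2 worms. It rose in daf-2 against N2, where the groups did not overlap (2.3 fold, 95% interval of the log2 fold change 0.68 to 1.72, edgeR BH-adjusted p = 0.0023), and this held without any of the 12 libraries. In the double mutant against N2 another tethering gene, vps-39, was the 1 of 15 that rose (0.51 ± 0.14, edgeR BH-adjusted p = 0.024), and it was lost without N2 replicate 1 (0.081) or 3 (0.077) or double mutant replicate 1 (0.11) or 3 (0.078).

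In the mitophagy list of 5 genes, dct-1, the worm counterpart of the BNIP3 receptor on mitochondria, fell in every comparison of the triple mutant. It had 16.7, 14.5 and 17.3 CPM in triple mutants, 27.1, 26.2 and 31.6 in daf-2 worms, 38.1, 26.6 and 32.4 in double mutants, and 29, 29.8 and 28.5 in N2 worms. The triple mutant was below all other libraries, and the others overlapped. Log2 fold changes of dct-1 were -0.81 ± 0.15 against daf-2 (edgeR BH-adjusted p = 0.0026) and -0.85 ± 0.15 against N2 (edgeR BH-adjusted p = 0.00081), with a 0.499 fold level against the double mutant (95% interval of the log2 fold change -1.33 to -0.68, edgeR BH-adjusted p = 0.00041). These 3 calls held without any of the 12 libraries, and the interaction (-0.97 ± 0.22, edgeR BH-adjusted p = 0.013) was lost without daf-2 replicate 3 (0.053). The ubiquitin ligase gene pdr-1, the worm parkin, was lower in triple than in double mutants (-0.61 ± 0.14, edgeR BH-adjusted p = 0.0086, held without any of the 12 libraries). The kinase gene pink-1 rose in the triple mutant against N2 (0.53 ± 0.15, edgeR BH-adjusted p = 0.02), lost without triple mutant replicate 1 (0.079) or N2 replicate 1 (0.065) or 3 (0.082). The opposite strand gene sfxn-2 overlaps 2.56% of the exon bases of dct-1, and mdt-29 on the same strand 8.11% of those of pdr-1.

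Among the regulators, the AMP-activated kinase gene aak-2 had 41.9, 34.4 and 31.4 CPM in triple mutants, 46.8, 66.5 and 49.2 in daf-2 worms, 50.1, 44.2 and 43 in double mutants, and 40.1, 38.2 and 40.5 in N2 worms. Its daf-2 libraries were above those of the triple mutant and N2. The log2 fold change of aak-2 was -0.59 ± 0.15 in the triple mutant against daf-2 (edgeR BH-adjusted p = 0.017), lost without daf-2 replicate 2 (0.099) or triple mutant replicate 2 (0.054) or 3 (0.083). The S6 kinase gene rsks-1, which acts downstream of TOR, fell in the triple mutant against daf-2 (-0.72 ± 0.22, edgeR BH-adjusted p = 0.038), lost without daf-2 replicate 1 (0.11) or 2 (0.13) or triple mutant replicate 2 (0.14) or 3 (0.097). The Max-like gene mxl-2 rose there (0.81 ± 0.19, edgeR BH-adjusted p = 0.011), lost without daf-2 replicate 2 (0.056) or triple mutant replicate 2 (0.06). The FoxO gene daf-16 rose in daf-2 against N2 (0.50 ± 0.13, edgeR BH-adjusted p = 0.01), lost without daf-2 replicate 2 (0.071) or N2 replicate 1 (0.053). The genes hlh-30, the worm TFEB, and let-363, the TOR kinase, were tested and passed in no comparison in edgeR.

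**Figure D5:**
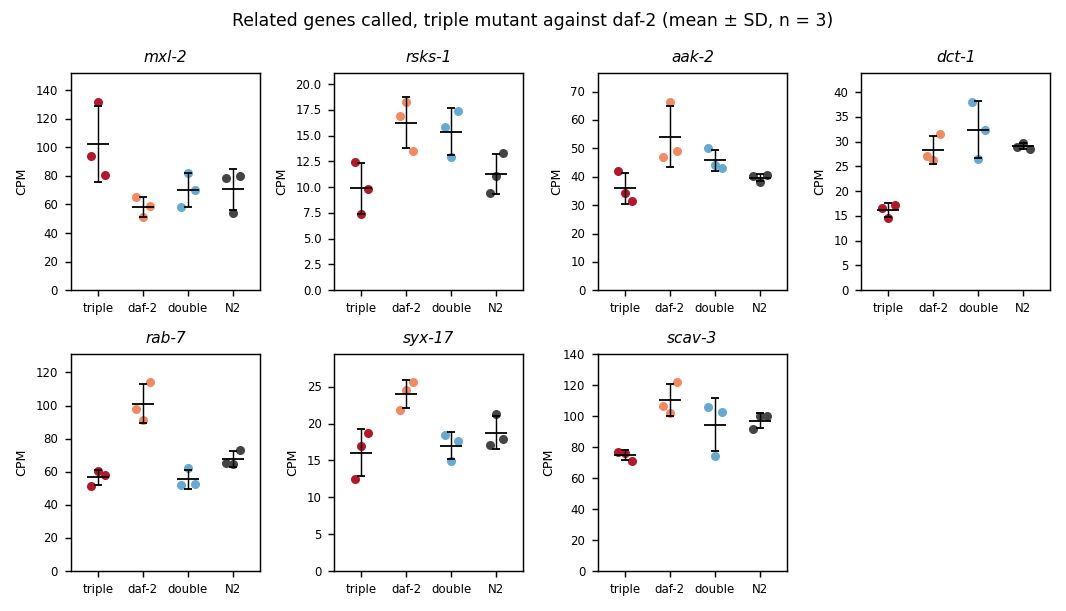
CPM of the 7 genes of the related lists that passed the adjusted threshold in the triple mutant spr-4;spr-3;daf-2 (triple) against daf-2, in each library (points) with the mean and SD of 3 libraries (bars), with the double mutant spr-4;spr-3 (double) and N2 beside them. For dct-1 the triple mutant (14.5 to 17.3 CPM) lies below every other library, for rab-7 daf-2 (91.2 to 114 CPM) lies above every other library, and mxl-2 is the gene of the 7 that is higher in the triple mutant.

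The germ granule proteins that EPG-2 and SEPA-1 help to clear in embryos come from pgl-1 and pgl-3, and 2 more genes, prmt-1, whose product modifies them, and the germ granule helicase gene glh-1, were listed with them. All 4 rose in the triple mutant against N2 (beside 10.8% of all tested genes higher), 3 rose in daf-2 against N2 (9.58%), 2 in the triple against the double mutant (7.02%) and 1 in the double mutant against N2 (5.07%). The gene pgl-1 had 125, 101 and 121 CPM in triple mutants, 85.1, 106 and 90.6 in daf-2 worms, 78.3, 77.6 and 88.6 in double mutants, and 52.6, 54.8 and 44.8 in N2 worms. N2 was below all other libraries. Relative to N2, the log2 fold change of pgl-1 was 1.19 ± 0.14 in the triple mutant (edgeR BH-adjusted p = 1.1e-05), 0.89 ± 0.14 in daf-2 (edgeR BH-adjusted p = 0.0002) and 0.68 ± 0.14 in the double mutant (edgeR BH-adjusted p = 0.0049). Between the triple mutant and daf-2, for which epg-2 fell, the 4 genes had adjusted p-values above 0.05 in edgeR and a median log2 fold change of 0.26, with 2 higher before adjustment and 1 with limma-voom. The genes pgl-1, pgl-3 and glh-1 are also in the germline marker list, of which 5 of 10 rose in the triple mutant against N2.

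In the last list, of 6 genes of PI3P turnover and other functions, the PIKfyve kinase gene ppk-3 fell in daf-2 against N2 (-0.74 ± 0.17, edgeR BH-adjusted p = 0.0059). It had 96.3, 84.9 and 94.7 CPM in triple mutants, 71.1, 96.9 and 66.5 in daf-2 worms, 84.4, 117 and 99.8 in double mutants, and 111, 160 and 120 in N2 worms. All daf-2 libraries were below all N2 libraries, and the call held without any of the 12 libraries. In the triple against the double mutant, the myotubularin gene mtm-3, a PI3P phosphatase, fell (-0.49 ± 0.14, edgeR BH-adjusted p = 0.029), lost without triple mutant replicate 2 (0.11) or 3 (0.083) or double mutant replicate 1 (0.051) or 3 (0.12).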

How the data were processed

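RNA of whole worms was made into cDNA with a kit that does not mark the strand and read as paired ends, per the labels' protocols. Per the submitters' processing notes the authors aligned reads with STAR to WBcel235 and counted them with featureCounts 1.5.1. The deposited values are raw counts per gene, with no normalization. Not given in the sources used here are the annotation release, the strand setting and the handling of multiply aligned reads. No other per-sample columns were used.

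All 12 libraries were fitted with edgeR 4.0.16 in R 4.3.3, with filterByExpr (minimum count 10, minimum total 15), TMM scaling (factors 0.846 to 1.207) and robust quasi-likelihood F-tests, two-sided, adjusted by Benjamini-Hochberg over 18342 genes. Standard errors are the absolute log2 fold change over the square root of F. Exon lengths and positions come from Ensembl release 115, which holds 46484 of the 46739 genes. The steps were tested on simulated data, with changes put only into the triple mutant and only into a small part of the better read genes. There, in the triple mutant against daf-2, edgeR called 92.4% of 4 fold, 49.3% of 2 fold and 11.9% of 1.5 fold changes. A member without a call can therefore still differ. Of the simulated calls in that comparison, 4 of 106 were false with edgeR, 21 of 136 with DESeq2 and 3 of 104 with limma-voom. In the double mutant against N2, where nothing was changed, DESeq2 made 12 calls and edgeR and limma-voom 0. The real comparison of the triple mutant with daf-2 had 2461 calls in edgeR, so the simulated shares need not hold for it. Alternatives were DESeq2 size factors, no count filter, DESeq2 1.42.0, voom with quality weights (limma 3.58.1), only the compared genotypes, a replicate block, each library left out, and, chosen after seeing the data, an exon length offset. Members and lists were chosen with earlier results of these data known. Named genes are all members past 0.05, the highest member of each role per kb, members not tested, and up to 3 genes per related list and comparison by p, of which the text gives part. Outside that rule, the values of sqst-1, sepa-1 and unc-51 and the fold changes of atg-2, atg-10 and lgg-3 were chosen after they were seen, and the other members outside it are given as ranges.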

Additional observations from a re-analysis of the deposited data

Results flagged for a closer look

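For 5 autophagy genes the effect of the daf-2 mutation in spr-4;spr-3 worms differed from its effect in N2 by a test of the difference itself, the interaction term of the edgeR fit. Its log2 value was -1.88 for epg-2, -1.17 for atg-16.1, -0.92 for atg-11, -0.75 for atg-16.2 and 0.93 for atg-4.1. These are 5 of the 31 tested members, beside 8.32% of all tested genes. The values of epg-2 and atg-4.1 kept their calls without any of the 12 libraries, and those of the other 3 did not.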

How the results depend on the processing

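Of 186 results (31 members in 5 comparisons and the interaction) edgeR called 26, and 13 of these held in every alternative that fitted them. Among these were the calls of epg-2 for daf-2 against N2, for the triple mutant against daf-2 and for the interaction. The other 13 were lost without some library, and 0 called values changed sign. DESeq2 called 36, limma-voom 37, the exon length offset 39, no count filter 28, DESeq2 size factors 27 and the replicate block 23. The compared genotypes alone, a fit without the interaction, gave 22 calls, with 3 of edgeR's pairwise calls lost and 4 gained. In the triple mutant against daf-2, DESeq2, limma-voom and the compared genotypes alone each gave 1 member higher and 5 lower, the length offset 1 and 7, against 0 and 3, and limma-voom called 3977 genes, against 2461. In the double mutant against N2, 2 members were lower with DESeq2 or its size factors and 3 with the length offset, against 1. There, 0 were higher with the compared genotypes alone (983 genes called, against 2141) and 1 with the block, against 2. In the triple against the double mutant, 1 was higher with DESeq2, limma-voom or the length offset. In daf-2 against N2 limma-voom gave 4 higher, against 2. In the interaction DESeq2 called 2355 genes, against 1526, and the block gave 2 members lower, against 4. No pairing by replicate number was seen: correlations of same-numbered libraries were -0.067 to 0.064, beside -0.066 to 0.076 for different numbers. Of the 12 libraries, 3 correlated best with their own number. The labels name no batch, so joint preparation of same-numbered samples is not excluded. The block lost atg-9 in the double mutant against N2 (adjusted p = 0.05) and the interactions of atg-16.1 (0.066) and atg-16.2 (0.05). The cause of these shifts was not tested.

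Leaving out each library gave 1 to 5 members lower and 1376 to 2841 genes called for the triple mutant against daf-2, then 3 to 6 lower, 0 to 1 higher and 1582 to 3303 genes in the triple against the double mutant. In daf-2 against N2 it gave 1 to 3 higher and 1 to 2 lower, and in the double mutant against N2 0 to 2 higher, 1 to 2 lower and 943 to 3139 genes. In the interaction it gave 1 to 6 lower and 772 to 2505 genes. Among the tested members depth limits epg-3 and sepa-1 most, with at least 18 and 44 reads per library.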
